A study of Mus musculus with 26 samples.

Results

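Partly methylated windows of mouse sperm were examined by reduced-representation bisulfite sequencing (RRBS), which reads methylation at CpGs near the cut sites of a restriction enzyme. A window was 1000 bp of an autosome with 3 or more distinct CpG positions (the strands of a CpG counted separately) that had at least 10 reads in every one of the 20 offspring libraries. Its methylation was the methylated reads over all reads, summed over its positions, so a read that covers several positions counts at each. Windows were chosen by the mean of the 20 libraries, from 20% to under 80%. This rule selected 5800 of 48723 windows (11.9%). Since the level chose the windows, it is given as a description, and only the spread between mice, the comparison of groups and the F0 mice were not used by the rule.

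The mice came from a study of spermatogonial stem cell transplantation (SSCT), in which germ cells of newborn DBA/2J males were expanded in culture and placed into testes of sterile W/W-v recipients. SSCT F0 were 3 such recipients, whose sperm descends from the transplanted cells in a host of another strain, and Control F0 were 3 DBA/2J males, both 16 to 18 months old. The offspring were 4 groups of 5 males, aged 3 months. Control F1 descended from untreated DBA/2J mice and SSCT F1 from the transplanted males and DBA/2J females. SSCT F2/M had SSCT F1 mothers and control fathers, and SSCT F2/P had SSCT F1 fathers and control mothers. Sperm of the epididymis was purified over a density layer, and each library was 1 mouse. Per the labels, the SSCT F0 libraries were started from less DNA than all others.

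In mammals most CpGs are either methylated on nearly all DNA molecules or on nearly none. In the male germ line, methylation is erased in primordial germ cells and laid down again before birth, and in mature sperm CpG-dense gene starts are mostly free of it while the rest of the genome is mostly methylated. A partly methylated window can hold DNA molecules that differ, or a mixture of CpGs that are methylated and CpGs that are not, and it is known from imprinted genes, borders of CpG islands and repeats.

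Summed over CpG positions, the libraries held 45616751 to 87707577 reads, a read counting once per position. The spiked control DNA was 0.542% to 1.26% methylated in its unmethylated form and 98.2% to 98.9% in its methylated form. The offspring libraries covered 1995496 to 2232483 positions, whereas SSCT F0 replicates 2 and 3 covered 1123580 and 305964. Autosomal methylation was 33.5% to 39.9% in the offspring, but 30.3%, 19.8% and 6.70% in SSCT F0 replicates 1, 2 and 3 and 28.4% in Control F0 replicate 2. Imprinted promoters that are methylated on the maternal allele, near 0 in sperm and not in somatic cells, were at 0.798% to 2.65% in the offspring over 7 measured windows of 6 of 12 marker genes. They were at 4.36%, 1.26% and 5.57% in the 3 SSCT F0 mice and at 0.885% to 1.35% in Control F0, and 5 windows of 5 of 8 germline gene starts were at 0.969% to 4.44% in the offspring, 2.23% to 4.37% in Control F0 and 2.97%, 2.12% and 0.064% in SSCT F0. None of these 12 windows was partly methylated. The 6 windows within H19, Meg3 and Rasgrf1, loci methylated on the paternal allele, were at 38.3% to 55.95% in the offspring, and 1 of the 6 was partly methylated. The 6 windows together were at 44.3% to 49.8% in Control F0, but at 43.1%, 18.6% and 0.119% in SSCT F0 replicates 1, 2 and 3.

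The group names of the offspring are in doubt. The sample titles, used here, and a naming published with the study give the same 4 sets of 5 libraries different names. Of 55 mean coverages published for single CpGs, 0 were found (within 0.06 reads) under the sample titles, 29 under the published naming and 44 under that naming once its pair of F2 names was swapped. Levels and spread over all offspring, and the test over the 4 sets, do not depend on the names. The mean and spread given for a named offspring group do, and so does each comparison with Control F1. The count of calls under the other names is given beside each such comparison. The windows named for these comparisons, and their values by group, are given under the sample titles only. Under the other names the same sets of mice would stand for other groups.

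To show how such windows are built, 4 of the 5 promoters with the most measured positions are given first, as RefSeq sequence of GRCm38.p6 from 250 bases before to 50 after the gene start, 5′ to 3′ on the strand of the gene. In the first 3, capitals mark CpGs. Vmn2r29 codes for a vomeronasal receptor, Ndufs6 for a subunit of respiratory complex I and Cxcl10 for a chemokine induced by interferon. The promoter left out, that of Spint2, was itself unmethylated although it lies in a partly methylated window. Its 9 measured positions were at 0% to 5.70% (mean 1.24%).
Vmn2r29: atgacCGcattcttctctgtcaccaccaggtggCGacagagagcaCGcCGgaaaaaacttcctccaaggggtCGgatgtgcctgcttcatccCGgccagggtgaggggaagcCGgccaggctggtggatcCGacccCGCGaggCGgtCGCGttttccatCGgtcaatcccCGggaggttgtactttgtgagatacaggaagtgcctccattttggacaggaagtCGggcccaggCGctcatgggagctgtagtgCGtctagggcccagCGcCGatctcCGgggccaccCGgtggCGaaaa
Ndufs6: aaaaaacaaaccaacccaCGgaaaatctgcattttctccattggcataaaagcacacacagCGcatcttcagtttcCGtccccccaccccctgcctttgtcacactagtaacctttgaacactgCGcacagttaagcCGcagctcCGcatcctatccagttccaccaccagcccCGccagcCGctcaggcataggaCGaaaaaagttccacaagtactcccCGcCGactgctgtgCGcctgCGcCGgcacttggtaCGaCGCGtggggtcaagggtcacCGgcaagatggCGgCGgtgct
Cxcl10: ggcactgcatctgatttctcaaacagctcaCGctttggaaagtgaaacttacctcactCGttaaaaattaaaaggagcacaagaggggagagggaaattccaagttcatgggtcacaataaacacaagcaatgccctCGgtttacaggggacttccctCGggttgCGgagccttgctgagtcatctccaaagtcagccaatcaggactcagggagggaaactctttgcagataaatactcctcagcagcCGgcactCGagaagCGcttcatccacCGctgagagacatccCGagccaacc
In the last, the predicted gene Gm36840, capitals mark CCGG, the site cut by the RRBS enzyme.
Gm36840: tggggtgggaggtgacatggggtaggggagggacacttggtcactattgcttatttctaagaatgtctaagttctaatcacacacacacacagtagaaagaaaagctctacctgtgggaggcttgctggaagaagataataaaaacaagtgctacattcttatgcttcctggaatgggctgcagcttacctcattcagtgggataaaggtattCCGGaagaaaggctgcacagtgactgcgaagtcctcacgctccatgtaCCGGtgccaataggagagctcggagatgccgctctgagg

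The Vmn2r29 promoter (chr7:7278240-7278539, minus strand) had 13 measured positions, from 0.265% to 95.2%. The 13 positions of the Ndufs6 promoter (chr13:73328433-73328732, minus strand) fell into unmethylated and partly methylated ones. Its CpGs at bases 257, 260 and 262 of the sequence were at 0% on the opposite strand, whereas those at bases 291 and 294 were at 43.1% and 42.6% on the strand of the gene and at 40.7% and 39.9% on the other. In Cxcl10 (chr5:92348840-92349139, minus strand) all 8 positions were partly methylated, between 34.3% and 46.4%. Gm36840 (chr5:32354780-32355079, minus strand) had no partly methylated position, since 6 of its 8 positions were above 97% and the other 2 below 10%. The low positions were the CpGs of the 2 CCGG sites, at base 215 on the opposite strand (7.40%) and at base 263 on the strand of the gene (5.81%), while the other strand of the same CpGs was at 97.4% and 98.6%.

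Most windows were at one end of the scale. Between 0% and 10% there were 23807 windows and from 90% to 100% 15559, and each step of 10 points within the partly methylated range held 733 to 1349. The median partly methylated window was at 55.2%, with 2428 windows under 50% and 3372 from 50%, and 1619 (27.9%) lay from 40% to under 60%. The windows next to the limits looked alike on both sides. Those just inside the lower limit, chr4:131266001-131267000 and chr12:51831001-51832000, were at 20.01% and 20.02%, and those just under it, chr7:49717001-49718000 and chr1:23499001-23500000, at 19.98% and 19.97%. Just inside the upper limit were chr7:126846001-126847000 in Doc2a (79.998%) and chr13:80065001-80066000 (79.99%), and just above it chr10:63761001-63762000 in Ctnna3 and chr13:12927001-12928000 in Gm40904, both at 80.01%. In these 8 windows the SD between mice was 5.18 to 11.7 points, far more than their distance from the limit.

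**Figure D1:**
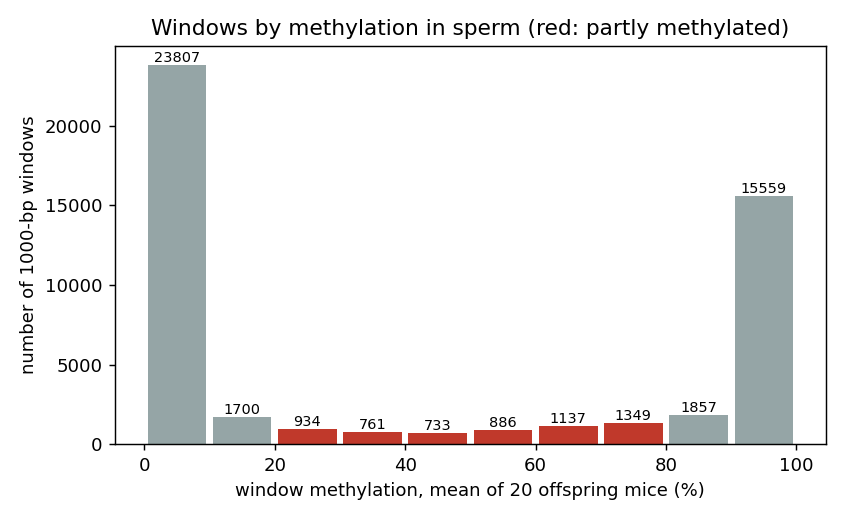
Number of 1000-bp windows (y axis) by their methylation in percent, mean of 20 offspring mice (x axis), in steps of 10 points, with the number on each bar. The 6 red bars are the partly methylated windows and hold 733 to 1349 windows each, against 23807 in the lowest and 15559 in the highest step.

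Partly methylated windows had few measured positions and lay far from gene starts. They had a median of 4 measured positions (3 to 31), as methylated windows did (median 4), against 8 in unmethylated windows (under 20%). Of them, 54.6% overlapped the span of a gene, against 82.8% of unmethylated and 69.7% of methylated windows. A gene start lay in 145 of them (2.59% of those on chromosomes with promoters in the reference), against 34.6% of unmethylated and 1.31% of methylated windows, and the median distance to the nearest start was 24.2, 0.991 and 23.4 kb in the 3 classes. By chromosome the share that was partly methylated ranged from 9.57% on chromosome 11 to 13.6% on chromosome 3. Adjacent windows were measured for few. Of 906 measured neighbours, 513 (56.6%) were unmethylated, 230 (25.4%) partly methylated and 163 (18.0%) methylated, and 15 windows lay between an unmethylated and a methylated one.

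Gene lists chosen with earlier results known were read through the windows that hold their gene starts. Of all windows with a gene start, 1.63% were partly methylated. Among germline genes it was 2 of 24 windows, those of Tdrd7 and Tex19.1, and among olfactory and vomeronasal receptors 1 of 3, that of Vmn2r29. It was 0 of 16 for maternally methylated imprinted promoters, 0 of 4 for paternally methylated imprinted loci, 0 of 7 for spermiogenesis, 0 of 5 for pluripotency, 0 of 16 for Hox and 0 of 181 for zinc-finger genes. No gene start of the clustered protocadherins was measured, and 5 of 48 windows within their spans (10.4%) were partly methylated, against 8.70% of windows within any gene.

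Tdrd7, a tudor-domain protein of the germ granules of spermatids, has its start in chr4:45965001-45966000. Its 4 positions were at 29.7% to 38.9%, and the window ranged from 16.2% to 62.2% over the 20 offspring (median 32.9%, SD 13.1 points). Tex19.1, which holds back retrotransposons in germ cells, starts in chr11:121146001-121147000, with 3 positions at 5.42% to 65.8%. That window ranged from 0% to 56.9% (median 28.3%, SD 11.6), and was at 15.4%, 4.55% and 29.1% in the 3 Control F0 mice. The 13 positions of the Vmn2r29 window (chr7:7278001-7279000) gave 32.5% to 67.7% (median 54.4%, SD 9.51), and 50.6%, 37.1% and 56.7% in Control F0. In each of the 3 windows the 4 offspring groups overlapped.

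Known motifs were searched on both strands of the 88 distinct promoter sequences, of 89 genes, with a measured position in a partly methylated window. CACGTG was in 5 of them (5.68%, against 7.14% of 31365 promoters), TGACGTCA in 1 (1.14%, against 1.83%) and GCGGGAA in 0 (against 4.63%), and none of the 3 was in the promoters shown. CCGG, which RRBS needs, was in all 88 and in 53.5% of all promoters.

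The windows were of 4 kinds by the levels of their positions. In 2177 (37.5%) every position was itself partly methylated. Another 1215 (20.9%) also had positions from 80% and 1146 (19.8%) also had positions under 20%. In 1262 (21.8%) there were positions under 20% together with positions from 80%. Of all 5800 windows, 612 held a position under 5% and one at or above 95%, and 770 held no partly methylated position at all. The kinds differed in how far mice differed, with a median SD of 12.4 points where every position was partly methylated and 4.67 points where low and high positions stood together.

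In part of the windows the strands of 1 CpG disagreed. Both strands were measured at 3748 CpGs within partly methylated windows, and in 892 (23.8%) they differed by more than 50 points, against 0.0290% of 37930 CpGs in unmethylated and 0.548% of 7487 in methylated windows. Partly methylated windows held 94.5% of all 944 such CpGs, and 515 of them (8.88%) had at least 1. An intermediate mean is what such a CpG gives to a window with few positions, so these shares follow in part from the rule. The low strand was at a median of 6.99% and the high strand at 98.2%. In 857 of the 944 (90.8%) the low position followed another measured position of its strand by exactly 48 or 49 bp in the direction of reading, as in Gm36840, and no other distance up to 60 bp was met in more than 26. The sequenced reads were 50 bp long, and 5 of the 5 low positions that lie in a RefSeq promoter were in CCGG, against 23.8% of 51769 measured promoter positions. In RRBS the ends of cut fragments are filled in with cytosines supplied with the enzyme. The part of this step in the low values was not tested. Without all positions that follow another by 48 or 49 bp, an alternative chosen after seeing the data, 5053 of 47574 windows were partly methylated (10.6%), among them 5022 of the 5346 original windows that could still be measured.

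**Figure D2:**
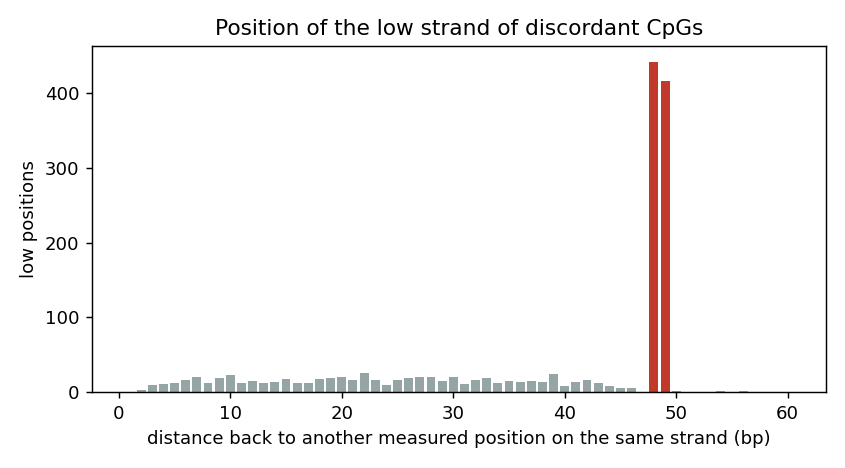
Number of low positions, among the low strands of 944 CpGs whose strands differ by over 50 points (y axis), that have another measured position on the same strand at each distance back in bp, against the direction of reading (x axis). The red bars at 48 and 49 bp hold 441 and 416 positions, and every other bar at most 26.

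Mice differed more in these windows than reads alone would give. The SD between the 20 offspring had a median of 9.69 points (quartiles 6.997 and 12.8, range 0.359 to 35.8), against 1.95 in unmethylated and 2.98 in methylated windows, where levels near the ends leave less room. Unequal coverage of the positions accounted for a median SD of 0.760 points, and 9.36 points were left after it was taken out. The Pearson dispersion was the variance between mice over that of counting, with the positions within a read taken as independent. It had a median of 9.68 over 5799 windows (5th to 95th percentile 4.20 to 25.3) and of 9.57 with the group means taken out. It was under 2 in 8 windows. Positions that share reads add to this ratio, by an amount that was not tested, whereas at a single position each read counts once. At 17517 single positions that were partly methylated, the median coverage was 46 reads and the SD between mice 18.6 points, against 7.48 expected from counting. This spread equals that of a median of 6.29 independent draws per mouse (quartiles 4.53 and 8.95). Partly methylated positions outside these windows had like dispersions, with medians of 6.77 in unmethylated and 6.56 in methylated windows, against 6.68 inside. The files give reads without molecular identifiers, so how many DNA molecules stood behind the reads cannot be told.

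Positions close together on 1 strand varied together, and others hardly did. For 2 partly methylated positions of a window on the same strand and up to 40 bp apart, the correlation over the 20 mice had a median r of 0.588 (12081 pairs). It was 0.161 from 41 to 100 bp and 0.024 beyond. Between the strands of 1 CpG the median was 0.017 (1815 pairs, quartiles -0.143 and 0.186), and between positions of neighbouring partly methylated windows 0.00099. These are descriptions over 20 mice, with no test, and positions on the same reads share their molecules. Over the 2735 windows that were partly methylated on both strands, the levels of the strands had a median r of 0.023, and r was at least 0.7 in 2 windows and at most -0.7 in 0.

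**Figure D3:**
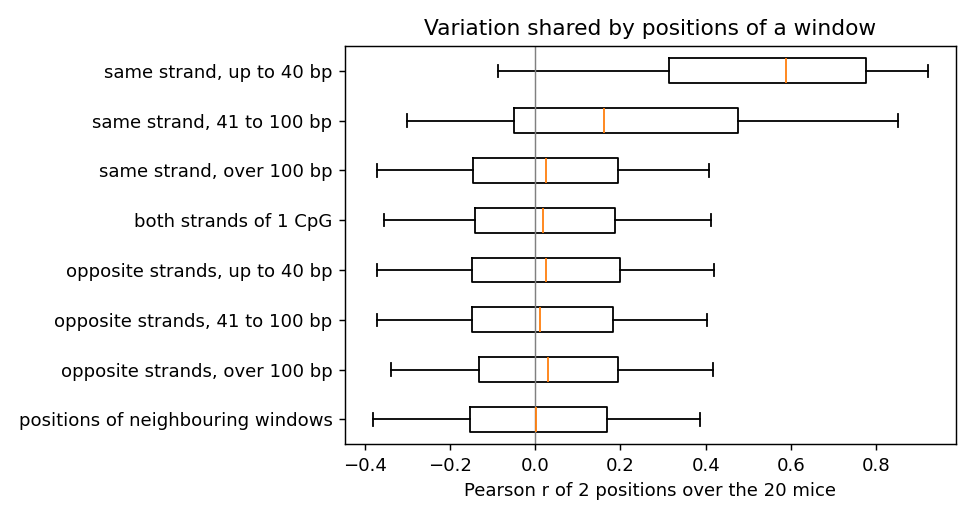
Pearson r over the 20 offspring mice for pairs of partly methylated positions (x axis), by strand and distance (rows). Boxes show the median and quartiles and whiskers the 5th and 95th percentiles of the pairs. The median is 0.588 on the same strand up to 40 bp and 0.017 between the strands of 1 CpG.

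The exceptions were chr2:98666001-98667000 (r 0.832) and chr19:53404001-53405000 (r 0.717), named after their values were seen. The former had a median of 1077000 reads per mouse in 10 positions, against 192.5 in the median window of the class. Its level of 67.9% to 72.1% hardly moved. In the latter, with 15 positions and a median of 734 reads, the strands were at 47.9% to 97.2% and at 52.6% to 90.4%, and the window ranged from 50.8% to 92.9% between mice.

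Windows with more separate stretches of positions varied less. A stretch was counted as positions of 1 strand in steps of at most 50 bp. The median SD was 12.3 points in 1738 windows with 1 stretch, 9.50 with 2, 8.72 with 3, 7.73 with 4 and 6.90 in 91 windows with 5 or more. The rank correlation of SD with the number of stretches was -0.281 and with the median reads of a window -0.418, over 5800 windows that share libraries. The same windows tended to vary in each group, with rank correlations of 0.567 to 0.593 between the SDs of 2 groups. The stretches of a window are the same in every group, and the part of stretches, reads and level in these correlations was not tested. In 1918 windows (33.1%) all 20 mice stayed from 20% to under 80%, and in 250 (4.31%) some mice were under 20% and others at or above 80%.

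**Figure D4:**
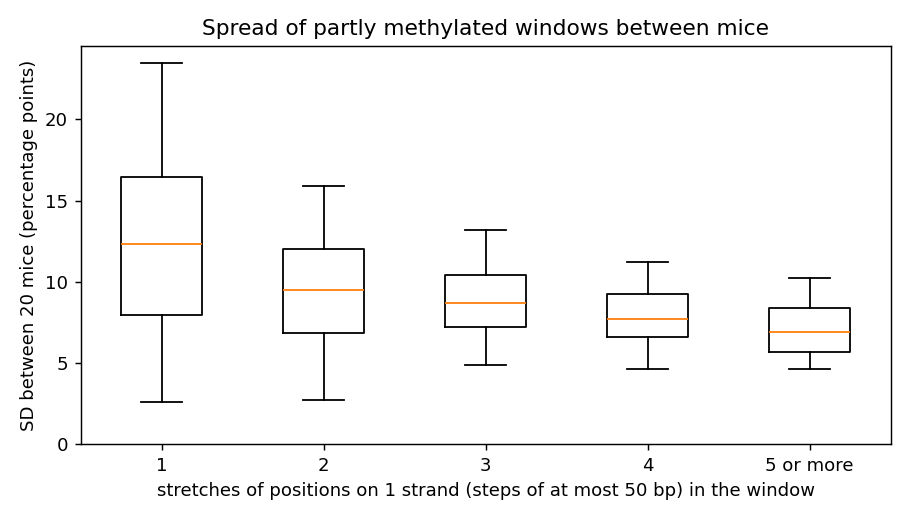
SD between the 20 offspring mice in percentage points (y axis) of 5800 partly methylated windows by the number of separate stretches of positions (x axis). Boxes show median and quartiles and whiskers the 5th and 95th percentiles, and the median falls from 12.3 with 1 stretch to 6.90 with 5 or more.

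The windows with the largest SD, among those with 5 or more positions, each held 1 stretch. In chr1:34179001-34180000 within Dst, a linker of the cytoskeleton, the 5 positions were all near 70% on average, yet mice ranged from 0% to 100% (median 78.7%, SD 27.4). Control F1 were at 91.0%, 88.6%, 0%, 30% and 90.8% in that window, so that mice of 1 group covered nearly the whole scale. Palld (chr8:61532001-61533000), which codes for an actin-binding protein, ranged from 0% to 93.7% (SD 26.8). The metalloprotease gene Adamts20 (chr15:94338001-94339000) ranged from 0% to 80% (SD 25.8) and Trio (chr15:27774001-27775000), a guanine nucleotide exchange factor, from 0% to 87.5% (SD 25.6). The fifth, chr14:108299001-108300000, overlapped no gene and ranged from 0% to 100% (SD 25.2).

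The windows with the smallest SD were of another kind. In Atp10d (chr5:72209001-72210000), a lipid transporter gene, 4 positions were from 80% and 2 under 20%, with 2 CpGs whose strands disagreed, and mice ranged only from 66.7% to 72.2% (SD 1.15). Atp2b4 (chr1:133739001-133740000), for a calcium pump, held 6 high and 2 low positions and 2 such CpGs, and ranged from 72.0% to 76.3% (SD 1.28). The windows chr2:98662001-98663000 (SD 1.05) and chr2:98666001-98667000 (SD 1.21) had medians of 104440 and 1077000 reads per mouse, the only 2 partly methylated windows above 10000. The median window of the class had 192.5, and whether all reads of these 2 windows come from these places was not tested. Over the class, windows with a disagreeing CpG had a median SD of 3.93 points, those with both strands measured and no such CpG 8.56, and those with no CpG measured on both strands 11.2.

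The windows with the most positions each overlapped a gene and varied moderately. Around the start of Ndufs6 (chr13:73328001-73329000), 31 positions averaged 29.1%, with 13 under 20% and 18 partly methylated, and mice ranged from 16.7% to 38.9%. Zfp36l2 (chr17:84185001-84186000), for a protein that promotes mRNA decay, had 25 positions and 19.3% to 46.5%. Bend3 (chr10:43511001-43512000), a chromatin protein gene, had 24 positions, none under 20%, and 67.6% to 88.1%. Eif2s2 (chr2:154892001-154893000), for a subunit of a translation initiation factor, had 23 positions of which 15 were under 20%, and 13.1% to 33.1%. Rapgefl1 (chr11:98837001-98838000) had 23 positions and 22.9% to 44.7%. The SD of these 5 windows was 4.77 to 6.68 points.

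The groups did not stand apart in the mean over all partly methylated windows. It was 53.0% ± 0.852 in Control F1, 53.1% ± 0.769 in SSCT F1 (SD, n = 5 each). The F2 groups were at 53.2% ± 0.792 for SSCT F2/M and 52.8% ± 1.17 for SSCT F2/P (n = 5 each). The 20 mice ranged from 51.2% to 54.1%, and the groups overlapped. The spread within a group had a median of 8.71, 9.13, 8.49 and 8.44 points in the same order.

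The Control F0 mice, which the rule did not use, had about the same levels. In the windows covered in each, they were at 54.6%, 49.4% and 53.0%, against 53.0%, 52.9% and 53.0% in the offspring at the same windows. Replicate 2, the lowest of the 3, was also the one with the lowest autosomal methylation of Control F0. Of the 5461 windows covered in all 3, 4865 (89.1%) had a mean from 20% to under 80%, against 93.1% to 94.0% in the offspring groups that chose them. Per mouse it was 81.6% to 82.4% in Control F0 and 80.8% to 85.8% in the offspring.

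SSCT F0 mice differed from one another. Replicate 1 was at 55.1% over 5231 windows (offspring there 52.6%), replicate 2 at 40.2% over 2965 windows (48.98%) and replicate 3 at 19.6% over 387 windows (44.0%). The share of windows within the range was 62.1%, 46.2% and 29.5%, with 15.2%, 38.0% and 63.8% under 20% and 22.7%, 15.8% and 6.72% from 80%. So in replicate 1 the mean was close to that of the offspring while more windows were at either end of the scale. Group and library cannot be told apart here, since the 3 SSCT F0 libraries are the ones with less starting DNA. Their 1977100, 1123580 and 305964 positions were fewer than in any other library, by little in replicate 1.

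**Figure D5:**
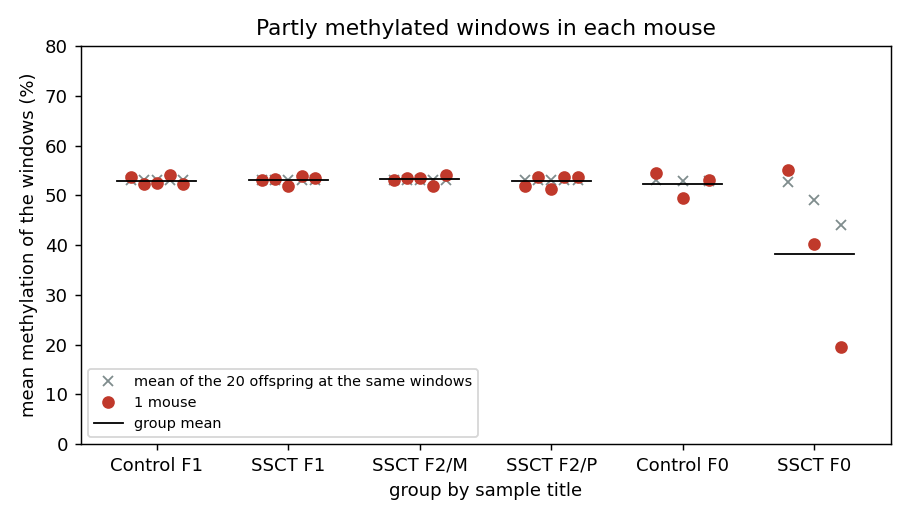
Mean methylation of the partly methylated windows in percent (y axis) for each of the 26 mice (red points) by group (x axis), over the windows covered in that mouse. The black line is the group mean and the grey cross the mean of the 20 offspring at the same windows. The offspring lie between 51.2% and 54.1% and SSCT F0 at 55.1%, 40.2% and 19.6%.

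Differences between groups were tested with a logistic model of the read counts, calling windows with q under 0.01 and a difference of more than 25 points. This test takes reads, and the positions within a read, as independent, and its q-values do not include the spread between mice. A second test, an F test of the same model scaled by the dispersion, includes it. The rule favours calls in the class, since a window near 0% or 100% in the offspring has little room for such a difference between offspring groups, and nothing is read from the shares below being above those of all windows. The windows named below were picked as called windows in which the mice of the groups, under the sample titles, do not overlap. An exact test of them would return that choice, so their values are given as a description with no p of their own. Over the 4 offspring groups, 120 of 5800 windows were called (2.07%), against 0.263% of all 48723 windows. With the F test 0 windows were called (smallest q 0.0449), and 42 had an unadjusted p under 0.05 with more than 25 points, against 0.0965% of all windows.

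For SSCT F1 against Control F1, 33 windows were called (0.569%, against 0.0698% of all windows), or 15 under either published naming. By the F test it was 0, with 21 at an unadjusted p under 0.05 and more than 25 points (0.362%, against 0.0452% of all windows). In 46 windows (0.793%, against 0.603% of all windows), 6 of them called, every mouse of one group was above every mouse of the other. The largest of these differences was in chr2:13491001-13492000, which holds the start of Cubn, the gene of the endocytic receptor cubilin. Control F1 were at 38.5%, 18.8%, 45.5%, 44.6% and 50.0% and SSCT F1 at 100%, 72.2%, 95.3%, 71.1% and 57.4%. All SSCT F1 mice were above all Control F1 mice, with a difference of means of 39.8 points. This window had 4 positions in 1 stretch and 48 to 180 reads per mouse, summed over the 4 positions. In chr11:63846001-63847000, over the pseudogene Hmgb1-ps3, the means were 32.0% and 65.3%, and in chr1:108784001-108785000, outside genes, 63.5% and 34.0%. The F test gave an adjusted p of 0.54 to 0.59 for the 3 windows.

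For SSCT F2 (both F2 groups, n = 10) against Control F1, 11 windows were called (0.190%, against 0.0246% of all windows), or 14 under either published naming. By the F test it was 0, with 10 at an unadjusted p under 0.05 and more than 25 points (0.172%, against 0.0205% of all windows). The mice did not overlap in 8 windows (0.138%, against 0.0718%), 2 of them called. In chr8:59677001-59678000, which overlaps no gene, Control F1 were at 34.7%, 40.6%, 48.2%, 44.4% and 37.1% and SSCT F2 at 55.7% to 84.9%, all above. In chr6:75077001-75078000, also outside genes, Control F1 were at 75.2% to 80.6% and SSCT F2 at 20.3% to 71.01%, all below. The differences of means were 28.0 and -27.3 points.

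For SSCT F2/M, 29 windows were called (0.5%, against 0.0595% of all windows), and 29 or 35 under the other names. The F test called 0, with 17 at an unadjusted p under 0.05 and more than 25 points (0.293%, against 0.0349% of all windows). The mice did not overlap in 41 windows (0.707%, against 0.651%), 6 of them called. In chr13:12826001-12827000, outside genes, Control F1 were at 50.8%, 20.8%, 61.4%, 37.0% and 28.8% and SSCT F2/M at 86.9%, 81.0%, 91.4%, 80.5% and 80.8%. SSCT F2/M mice were all higher and close together, while Control F1 mice were far apart, and the means differed by 44.4 points. In chr14:13750001-13751000, outside genes, Control F1 ranged from 4.35% to 64.5% and SSCT F2/M from 64.7% to 87.9%, so that the groups nearly touched, and chr6:75077001-75078000 was again among the called windows (77.5% and 47.0%).

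For SSCT F2/P, 24 windows were called (0.414%, against 0.0513%), and 35 or 29 under the other names. The F test called 0, with 18 at an unadjusted p under 0.05 and more than 25 points (0.310%, against 0.0390% of all windows). The mice did not overlap in 53 windows (0.914%, against 0.716%), 4 of them called. The largest difference was in chr17:81738001-81739000 at a start of Slc8a1, which codes for a sodium-calcium exchanger. Control F1 were at 80.7%, 100%, 68.8%, 81.8% and 88.6% and SSCT F2/P at 15.3%, 58.3%, 65.2%, 66.7% and 59.8%, all lower, with a difference of means of -30.9 points. In chr9:94392001-94393000, outside genes, the means were 42.0% and 14.8%, and chr8:59677001-59678000 was again among the called windows (40.98% and 69.9%). The 3 comparisons of single groups share the Control F1 mice.

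The windows called between offspring groups were mostly measured on 1 strand in 1 stretch. Positions on both strands were found in 4 of the 33 called windows of SSCT F1, 0 of the 11 of SSCT F2, 2 of the 29 of SSCT F2/M and 3 of the 24 of SSCT F2/P, against 3718 of 5800 windows of the class. In these 9 the strands differed between the groups in the same direction in 8, and in 0 by more than 25 points on both. The median called window had 3 positions and 108 to 123 reads, summed over its positions.

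Between the untreated groups, which differ in age and generation, 56 of 5461 windows were called for Control F0 against Control F1 (1.03%, against 0.128% of 46263 windows), or 48 under either published naming. The F test called 0, with 29 at an unadjusted p under 0.05 and more than 25 points (0.531%, against 0.0627% of all windows tested). The mice did not overlap in 226 windows (4.14%, against 2.99% of all windows tested), 23 of them called. Of the 56 called windows, 42 were in 1 stretch, and 13 had both strands, 3 of these with more than 25 points on both. The largest difference without overlap was in chr3:159046001-159047000, outside genes. Control F1 were at 26.4%, 62.5%, 67.6%, 55.95% and 23.5% and Control F0 at 98.5%, 73.9% and 100%, all higher, by 43.6 points in the mean. In chr9:69748001-69749000, with 7 positions and outside genes, Control F1 ranged from 27.6% to 82.3% and Control F0 from 6.72% to 27.03%, all lower.

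For SSCT F0 against Control F0, only 267 partly methylated windows had the coverage in all 6 mice. Of these 102 were called (38.2%, against 3.16% of 6615 windows), 89 of them lower in SSCT F0 (against 2.04%), and the median difference was -17.5 points, against -1.05 over all windows tested. The F test called 0 (smallest q 0.0410), with 31 at an unadjusted p under 0.05 and more than 25 points (11.6%, against 1.07%). The dispersion between mice had a median of 83.3. The mice did not overlap in 75 windows (28.1%, against 12.1%), 42 of them called. Of the 102 called windows 34 were in 1 stretch, and 9 had both strands, 6 of these with more than 25 points on both. The 6 windows within H19, Meg3 and Rasgrf1 were together lower in replicates 2 and 3 as well, and their part in these calls was not tested. In chr8:22811001-22812000, within Gm46036, Control F0 were at 82.6%, 83.0% and 83.5% and SSCT F0 at 51.5%, 0.295% and 0%. In chr2:34054001-34055000, within C230014O12Rik, Control F0 were at 63.3%, 95.1% and 65.7% and SSCT F0 at 0% in all 3. In chr6:98920001-98921000, outside genes, Control F0 were at 92.7%, 81.4% and 59.6% and SSCT F0 at 32.1%, 0% and 0%. An exact permutation test of 3 against 3 mice could not go below p = 0.1 in any window. Without replicate 3, the sparsest library, 2697 partly methylated windows of 29189 were covered in the other mice, and 715 of 1190 called windows were among them.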

How the data were processed

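RRBS libraries of sperm from 26 mice were analysed. Per the labels and the study's methods, the authors prepared them with a commercial RRBS kit, sequenced 50-bp single reads, and used Trim Galore 0.4.1, FastQC, Bismark 0.20.0 and methylKit 1.7.0 (versions from the submitters' processing notes) on GRCm38 (mm10). For each library the authors deposited, per CpG position and strand, a raw count of reads (coverage) and the methylated fraction from 0 to 1. Fraction times coverage gave whole methylated reads at all but 57 positions. All 314699 listed positions within RefSeq promoters of GRCm38.p6 lay in a CpG. That reference is of strain C57BL/6J, whereas the germ cells were of DBA/2J, and the part of strain variants at CpGs was not tested.

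Windows and members followed the rule in the text. The members and gene lists were chosen with earlier results of these data known. Logistic likelihood-ratio tests were fitted to all windows with the coverage, with Benjamini-Hochberg adjustment, and tested on simulated data. F0 comparisons also required 10 reads in the F0 libraries. Alternatives were an F test, limma 3.58.1, a replicate block, coverage limits, other windows and leaving out libraries. Python 3.11.15, numpy 2.4.6, scipy 1.17.1 and R 4.3.3 were used. Named windows were the 5 with most positions, the 5 with the largest and the 5 with the smallest SD among those with 5 or more positions, up to 3 called without overlap per comparison, 2 on each side of each limit, and up to 4 per gene list; 2 of the named windows are not reported here. Replicates were separate mice; no 2 libraries of 325 pairs were identical.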

Additional observations from a re-analysis of the deposited data

Results flagged for a closer look

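A mouse far from the other 4 of its group was found in 8 of 97 groups of 5 tested with Dixon's criterion for the mean level and the named windows, and chance alone gives about 1 in 20. No mean over all partly methylated windows was among them. In Trio (chr15:27774001-27775000) SSCT F2/M replicate 5 was at 0%, where the others were at 45.8% to 62.9%. At the start of Tex19.1, Control F1 replicate 2 was at 0%, with the others at 23.3% to 32.7%. At the start of Slc8a1, SSCT F2/P replicate 1 was at 15.3%, and in chr9:94392001-94393000 SSCT F2/P replicate 2 was at 0%. The other 4 were in windows of very small spread, where Control F1 replicate 5 was at 72.3% and SSCT F2/M replicate 2 at 74.3% in chr2:98662001-98663000, Control F1 replicate 5 at 66.8% in Atp10d, and SSCT F2/M replicate 5 at 72.1% in chr2:98666001-98667000.

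The X chromosome was outside the rule. Under the same limits, 49 of its 208 windows were partly methylated (23.6%, against 11.9% on the autosomes), with a median level of 62.6% and a median SD between mice of 9.55 points. The difference in share was not tested.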

How the results depend on the processing

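With at least 5 or 20 reads there were 9151 and 2063 partly methylated windows (12.7% and 10.7% of windows, median SD 10.1 and 8.96 points), with at least 2 or 5 positions 9473 and 2117 (12.8% and 8.19%, 11.04 and 8.30 points). Limits of 25% and 75% gave 9.43% and 9.97 points, merged strands 11.7% and 9.19 points, windows shifted by 500 bp 12.2%, and leaving out positions 48 or 49 bp after another 10.6% and 10.3 points. Without each library in turn there were 5813 to 6060 windows (11.9% to 12.01%, 9.65 to 9.78 points). The F test and limma called 0 windows in the 6 comparisons other than SSCT F0 against Control F0, where they called 0 and 3. At an unadjusted p under 0.05 and more than 25 points, limma gave 33 windows over the 4 offspring groups, 22 for SSCT F1, 10 for SSCT F2, 17 for SSCT F2/M, 18 for SSCT F2/P, 50 for SSCT F0 and 33 for Control F0 against Control F1. In the same order, at least 20 reads left 13, 5, 0, 3, 2, 44 and 7 called windows. Among windows of any level it was 15, 5, 0, 3, 3, 90 and 7. A difference above 10 points gave 2144, 803, 533, 788, 731, 195 and 1068. Among windows of any level it gave 3111, 1077, 680, 1064, 976, 708 and 1476. With the replicate block the counts were 120, 33, 11, 29, 24, 95 and 55. Among windows of any level they were 128, 34, 12, 29, 25, 202 and 58. No label says what a shared replicate number marks. The deviations of same-numbered offspring had r from -0.021 to 0.043 (median 0.017, 30 pairs), other pairs -0.055 to 0.039 (median -0.0016, 120 pairs), and 12 of 20 offspring correlated best with a mouse of their own number, a hint from the data and not from the design. Under either published naming SSCT F1 had 15 called windows. Without each library in turn the ranges were 124 to 144, 36 to 47, 13 to 25, 32 to 47, 29 to 35, 87 to 124 and 61 to 122. SSCT F2 rose past 1.5 times its count without Control F1 replicates 1 to 5 (25, 22, 19, 21 and 17) or SSCT F2/M replicate 2 or 5 (17 each), SSCT F2/M without Control F1 replicate 1 or 4 (47 and 45), and Control F0 against Control F1 without Control F0 replicate 1, 2 or 3 (122, 88 and 102). Without SSCT F0 replicate 3, over the windows then covered, 715 were called, since more windows could be tested. In the 267 windows that all 26 libraries covered, the mean level was 42.4% in SSCT F1, 41.8% in Control F1, 43.2% in SSCT F2/M, 42.8% in SSCT F2/P, 42.2% in Control F0 and 32.5% in SSCT F0. Leaving out a mouse moved the group means within 52.9% to 53.4% in SSCT F1, 52.7% to 53.1% in Control F1, 53.0% to 53.5% in SSCT F2/M, 52.6% to 53.2% in SSCT F2/P, 29.9% to 47.7% in SSCT F0 and 51.2% to 53.8% in Control F0. With only replicate 1 kept, the SSCT F0 mean over the windows covered was 55.1%, above the 52.3% of Control F0. With all 3 mice it was 38.3%, below Control F0. No difference of means in a named called window changed its sign. The causes of these changes were not tested. Coverage limits windows to sites near RRBS cut sites, and counting error at the median of 46 reads per position is 7.48 points.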
